A study of Mus musculus with 8 samples.

Results

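The genes described here are of the pathway that makes, carries, reads and removes retinoic acid. They are 9 of the 54532 genes in the deposited table, chosen by name. Aldh1a1, Aldh1a7, Aldh1a2 and Aldh1a3 are of the Aldh1a family of aldehyde dehydrogenases. The others are the retinol dehydrogenase Rdh10, the retinol carrier Rbp4, the retinoic acid hydroxylase Cyp26b1, and the receptors Rara and Rxra. Aldh1a1 was picked for its rise in BPA, so its difference between the groups is given as a description with no test. All 9 were found, and 8 had a mean of at least 0.5 FPKM, the filter for testing; Aldh1a3 did not.

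The samples are kidney libraries of ICR mice, an outbred stock. BPA (bisphenol A, a plastic monomer and weak estrogen receptor ligand) was given to 1 group and vehicle to the other, with 4 libraries in each. All libraries were made from polyadenylated RNA. The sources used here do not give genotype, age, dose, route or duration. Nor do they say whether each library is a different animal; p-values therefore describe only the spread over these libraries, which may be technical.

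Retinol reaches tissues bound to retinol binding protein, and filtered carrier is taken up in the proximal tubule by megalin. Inside cells, retinol is oxidised to retinaldehyde, mainly by RDH10, and retinaldehyde is oxidised irreversibly to retinoic acid by enzymes of the ALDH1A family. Retinoic acid binds RAR-RXR heterodimers on direct repeats in DNA, and CYP26 enzymes break it down. In the kidney the pathway is best known for its part in branching of the ureteric bud during development.

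Read totals recovered from the deposited values were 15944081 to 17351540 per library. Summed FPKM of 8 proximal tubule markers was 4167 to 6214 in BPA and 4902 to 6097 in vehicle, and none of the markers was at 0 in every library. A library of each group stood apart. Vehicle replicate 4 held skeletal muscle RNA (summed FPKM of 4 markers 195, against at most 0.306 in the BPA libraries), and BPA replicate 4 had the fewest genes above 0 (17174) and the highest share of mitochondrial reads (14.2%). That share was 9.66 to 14.2% in BPA and 7.02 to 8.33% in vehicle, and its part in the results below was not tested. Replicates 1 and 2 of both groups differed from replicates 3 and 4 in clock genes that were picked after their values were seen, so differences are also given within each of these parts, which are not groups of the study.

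Aldh1a1, which oxidises retinaldehyde to retinoic acid, had the highest level in BPA relative to vehicle of these genes. Its level was 8.28, 10.03, 2.71 and 4.83 FPKM in BPA replicates 1 to 4, against 0.343, 0.714, 0.838 and 0.829 FPKM in vehicle replicates 1 to 4. The groups did not overlap: the lowest BPA library, replicate 3, was above the highest vehicle library. The means were 6.47 ± 3.31 FPKM in BPA and 0.681 ± 0.232 FPKM in vehicle (SD, n = 4 each), a ratio of 9.49, and the difference on the log2(FPKM + 1) scale was 2.04. That scale understates the change of a gene this low; with a pseudocount of 0.1 in place of 1 the difference was 2.97. Among 13376 tested genes the difference ranked 5 from the top, and 3.23% of them had all BPA libraries above all vehicle libraries; since Aldh1a1 was chosen by this contrast, nothing is read from either figure.

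The BPA libraries differed among themselves by more than counting error. Aldh1a1 had 836 reads in BPA replicate 2 and 218 in BPA replicate 3, with exact Poisson 95% intervals of 9.37 to 10.7 FPKM and 2.37 to 3.10 FPKM. In vehicle it had 31 to 71 reads per library. These intervals cover counting error only. Taken alone, replicates 1 and 2 gave a difference of 2.74 and replicates 3 and 4 one of 1.34. With no overlap between the groups, both parts had to have the same direction. The difference was 2.16 without both replicates 4 and 2.001 after correction for transcript GC content.

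In GRCm38, Aldh1a1 occupies bases 20492715 to 20643462 of chromosome 19 and is read from the plus strand. Its duplicate Aldh1a7, found in rodents, lies on the minus strand from 20692953 to 20727562. By these deposited coordinates 49490 bases lie between the genes, with 0 GENCODE genes wholly within them. Their longest principal transcripts in GENCODE, of 2358 and 2066 bases, aligned with 89.0% identity over 2040 columns. Of the 50-base words of the Aldh1a1 transcript, 6.54% also occur in Aldh1a7, and 7.49% of the Aldh1a7 words occur in Aldh1a1. How the authors assigned reads that match both is not given in the sources used here, so part of either gene's reads is uncertain. Over the BPA libraries Aldh1a1 had 2157 reads and Aldh1a7 331. A given number of misassigned reads would therefore be a larger share of the Aldh1a7 level, and its size was not tested. Against Aldh1a2 and Aldh1a3 the identity of the Aldh1a1 transcript was 70.7% and 70.3%, with 0% of words shared.

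The promoters of the neighbouring genes are shown because their core is shared while their levels in BPA differed. The 250 bases upstream of each start site are given 5′ to 3′ from RefSeq (GRCm38.p6), with capitals marking the longest run that both hold. RefSeq has another Aldh1a1 start site at 20492583, upstream of the one shown at 20601968.
Aldh1a1 (chr19:20601718-20601967, plus strand): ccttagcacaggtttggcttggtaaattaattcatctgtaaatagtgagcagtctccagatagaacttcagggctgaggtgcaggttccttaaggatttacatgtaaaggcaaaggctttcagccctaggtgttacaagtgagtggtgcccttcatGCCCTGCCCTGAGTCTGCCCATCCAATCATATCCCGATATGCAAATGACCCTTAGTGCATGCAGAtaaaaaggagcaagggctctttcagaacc
Aldh1a7 (chr19:20727557-20727806, minus strand): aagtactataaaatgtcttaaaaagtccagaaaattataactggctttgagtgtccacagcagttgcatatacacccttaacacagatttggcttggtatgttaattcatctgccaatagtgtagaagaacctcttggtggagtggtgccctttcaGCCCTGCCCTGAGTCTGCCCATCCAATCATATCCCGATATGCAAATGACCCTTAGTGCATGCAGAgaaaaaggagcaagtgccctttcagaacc

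The shared run is 65 bases long and ends 30 bases before both start sites, and the whole windows aligned with 68.3% identity over 271 columns. The run holds a CCAAT box (CCAAT) and an octamer (ATGCAAAT), which lie 72 and 56 bases before the start in both genes. Searched on both strands of the 250 upstream bases, the octamer was in 1.60% and CCAAT in 33.9% of 32851 RefSeq promoter windows of the same length. Neither was limited to this pair among the members. Aldh1a2 also held both, and Rara and Rbp4 held CCAAT. The TATA-like letters ATAAAA, in 17.0% of windows, begin 30 bases before the start in Aldh1a1, with the last base of the run as their first; in Aldh1a7 they are found 243 bases before it. The distal Aldh1a1 window shared no run longer than 8 bases with Aldh1a7. Direct repeats of the receptor half-sites AGGTCA or AGTTCA, 5 or 2 bases apart, were in 0 of the 13 windows of the 7 members with a RefSeq entry, and in 0.0335% (5 apart) and 0.0365% (2 apart) of all windows. These matches are descriptions of letters and not sites.

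Aldh1a7 stood at 2.79, 1.78, 1.10 and 3.87 FPKM in BPA replicates 1 to 4, against 1.27, 1.002, 1.56 and 1.95 FPKM in vehicle replicates 1 to 4. The groups overlapped, with BPA replicates 1 and 4 above every vehicle library and BPA replicate 3 among the vehicle values. The difference of 0.41 (SE 0.255) did not pass limma's test (adjusted p = 0.541), and it was 0.21 without BPA replicate 4. Replicate 3 held the lowest BPA level of both neighbours, whereas the highest was in replicate 2 for Aldh1a1 and in replicate 4 for Aldh1a7.

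The other family members were low. Aldh1a2, the enzyme that makes most retinoic acid in the early embryo, was at 1.45, 0.994, 1.06 and 1.02 FPKM in BPA replicates 1 to 4, against 2.39, 1.56, 0.657 and 0.382 FPKM in vehicle replicates 1 to 4. The BPA libraries lay inside the vehicle range (difference 0.01, SE 0.267, limma adjusted p = 0.992). For replicates 1 and 2 alone the difference was -0.41, against 0.43 within replicates 3 and 4. Aldh1a3, a further retinaldehyde dehydrogenase, was at 0.0399 to 0.212 FPKM in BPA and 0.0355 to 0.324 FPKM in vehicle, from 3 to 17 and 3 to 26 reads per library, and was too low to test.

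**Figure D1:**
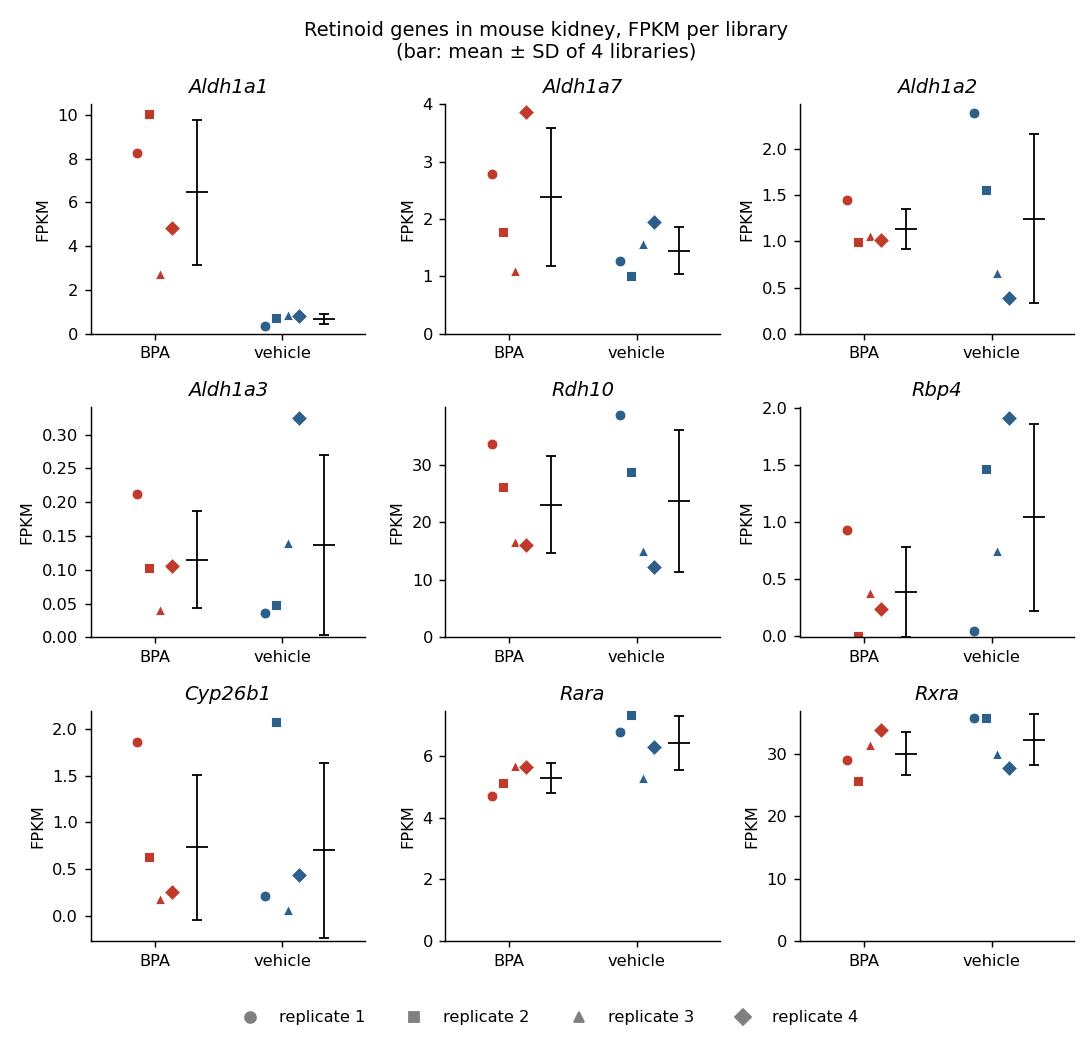
Level of each retinoid gene (FPKM, linear axis) in the 4 BPA and 4 vehicle libraries; symbols give the replicate number and bars the mean ± SD. Only for Aldh1a1, which was chosen for this difference, do the groups not overlap (2.71 to 10.03 FPKM in BPA and 0.343 to 0.838 FPKM in vehicle). Of all tested genes, 3.23% had all BPA libraries above all vehicle libraries and 4.66% had all below.

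Rdh10, which catalyses the first oxidation step, was one of the highest of these genes and followed the replicate number rather than the treatment. It was at 33.6, 26.1, 16.5 and 16.0 FPKM in BPA replicates 1 to 4, against 38.6, 28.7, 15.0 and 12.3 FPKM in vehicle replicates 1 to 4. Replicates 1 and 2 of both groups, at 26.1 to 38.6 FPKM, were all above replicates 3 and 4, at 12.3 to 16.5 FPKM. Between BPA and vehicle the difference was 0.04 (SE 0.377, limma adjusted p = 0.972), with -0.16 for replicates 1 and 2 alone and 0.24 for replicates 3 and 4 alone. The parts were seen in these data, so their difference has no test; 3.66% of tested genes were likewise higher in all libraries of replicates 1 and 2.

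Several other measures moved with the same parts. For Arntl, a clock activator, replicates 1 and 2 spanned 2.22 to 4.27 FPKM while replicates 3 and 4 spanned 0.106 to 0.550 FPKM. For Dbp, driven by the clock, those ranges were 0.876 to 9.02 FPKM and 22.4 to 44.2 FPKM. The summed level of 5 endothelial markers was 49.3 to 64.7 FPKM in replicates 1 and 2 and 14.8 to 30.5 FPKM in replicates 3 and 4, that of 5 stromal markers 15.4 to 18.7 and 8.66 to 14.0 FPKM, and that of the proximal tubule markers 4167 to 5121 and 5338 to 6214 FPKM. Taken singly, each endothelial marker separated the parts, but among the stromal markers only Pdgfrb did. The stromal marker Lum went the other way, with means of 0.497 FPKM in replicates 1 and 2 and 0.782 FPKM in replicates 3 and 4. Of the proximal tubule markers only Slc34a1 and Slc22a6 separated the parts. None of the endothelial, stromal and proximal tubule lists had a marker at 0 in every library. In all the other marker lists examined the parts overlapped. Podocyte markers, for example, summed to 42.3 to 55.1 and 11.5 to 52.5 FPKM, and intercalated cell markers to 59.0 to 67.9 and 42.8 to 81.0 FPKM. The part of any of these measures in the Rdh10 levels was not tested. In bulk tissue fewer cells of a type and less RNA per cell cannot be told apart. In vehicle, Aldh1a2 was likewise higher in replicates 1 and 2 than in replicates 3 and 4, but with the BPA libraries the parts overlapped (0.994 to 2.39 and 0.382 to 1.06 FPKM).

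**Figure D2:**
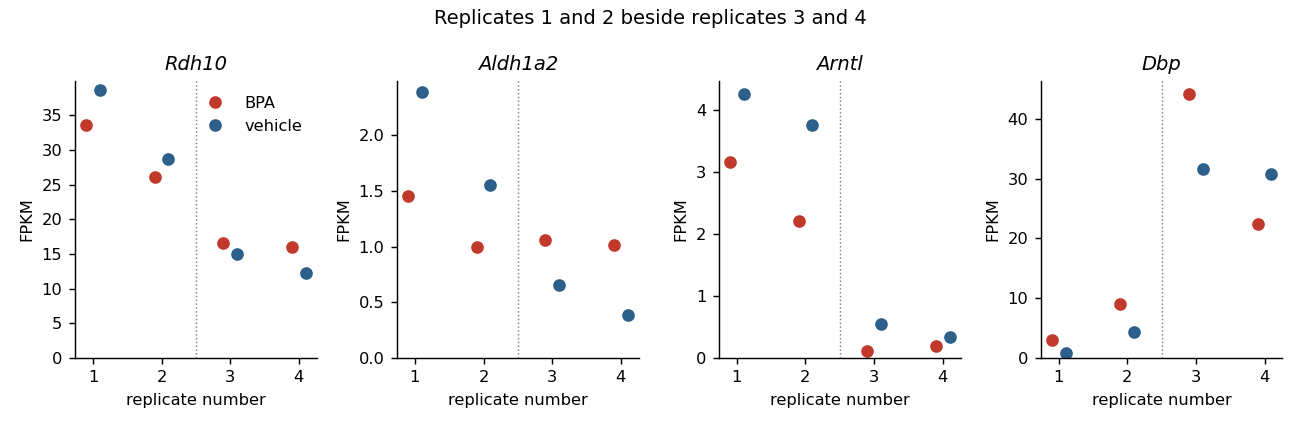
FPKM (linear axes) of Rdh10, Aldh1a2 and the clock genes Arntl and Dbp by replicate number, 1 point per library, with a dotted line between replicates 2 and 3. Rdh10 is at 26.1 to 38.6 FPKM left of the line and at 12.3 to 16.5 FPKM right of it, in BPA and vehicle alike.

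Rbp4, which encodes the plasma carrier of retinol and is made mainly in liver and fat, was low and uneven. It was at 0.933, 0, 0.379 and 0.233 FPKM in BPA replicates 1 to 4, from 21, 0, 8 and 5 reads, against 0.0421, 1.47, 0.747 and 1.91 FPKM in vehicle replicates 1 to 4, from 1, 34, 15 and 43 reads. The 0 reads in BPA replicate 2 allow up to 0.137 FPKM (3 reads). The groups overlapped, and the difference of -0.50 (SE 0.333) did not pass limma's test (adjusted p = 0.567). Leaving out vehicle replicate 1 gave -0.79, leaving out vehicle replicate 4 gave -0.29 and leaving out both replicates 4 gave -0.25, while the value was -1.44 by limma-voom on recovered reads.

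The adipocyte hormone gene Adipoq is given beside it. It was at 1.29, 0, 1.87 and 0 FPKM in BPA replicates 1 to 4, against 0, 7.17, 2.53 and 22.2 FPKM in vehicle replicates 1 to 4. The 3 libraries in which Adipoq was at 0 held 0, 1 and 5 Rbp4 reads, and the libraries with the most Adipoq, vehicle replicates 4 and 2, had the most Rbp4. Among the other libraries the orders differed. BPA replicate 1 had 1.29 FPKM of Adipoq and 0.933 FPKM of Rbp4. For BPA replicate 3 these were 1.87 and 0.379 FPKM, and for vehicle replicate 3 they were 2.53 and 0.747 FPKM. The summed level of 6 fat markers was 2.38 to 20.1 FPKM in BPA and 3.20 to 289 FPKM in vehicle. The summed level of 4 hepatocyte markers was 2.94 to 10.7 FPKM in BPA and 2.45 to 4.49 FPKM in vehicle, most of it Alb. The part of fat or liver RNA in the Rbp4 levels was not tested.

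**Figure D3:**
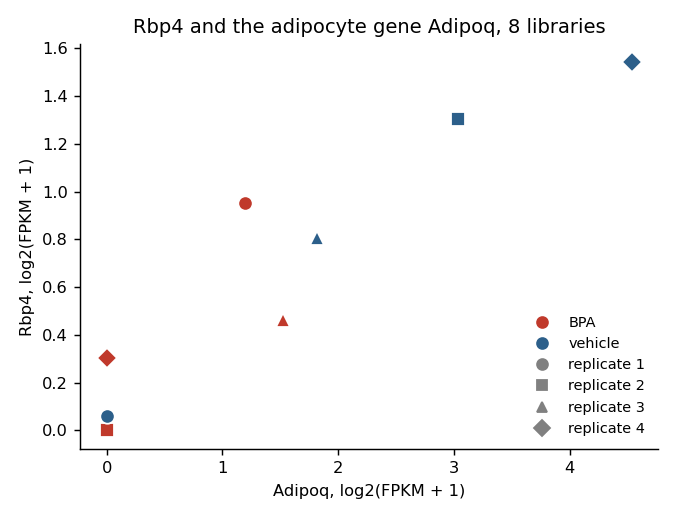
Rbp4 against Adipoq in the 8 libraries, both as log2(FPKM + 1), coloured by group with symbols for the replicate number. Vehicle replicate 4 (22.2 FPKM Adipoq, 1.91 FPKM Rbp4) is at the top right and BPA replicate 2 (0 FPKM of both) at the origin.

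Cyp26b1, which starts the breakdown of retinoic acid, was at 1.86, 0.631, 0.184 and 0.249 FPKM in BPA replicates 1 to 4, against 0.214, 2.08, 0.0604 and 0.441 FPKM in vehicle replicates 1 to 4. Each group had 1 library well above its others, BPA replicate 1 and vehicle replicate 2, with 173 and 199 reads against 5 to 57 in the other libraries. The difference was 0.07 (SE 0.387, limma adjusted p = 0.952), and it turned to -0.21 without BPA replicate 1.

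The receptors were the steadiest members. Rara, the retinoic acid receptor alpha, was at 4.69, 5.13, 5.68 and 5.66 FPKM in BPA replicates 1 to 4, against 6.79, 7.33, 5.29 and 6.28 FPKM in vehicle replicates 1 to 4. All BPA libraries were below the vehicle mean, and the groups overlapped only through vehicle replicate 3. The difference of -0.23 (SE 0.115) did not pass limma's test (adjusted p = 0.478); it was -0.45 within replicates 1 and 2, -0.02 within replicates 3 and 4 and -0.04 after GC correction. The Rara transcript has the highest GC content of these genes, 59.2%, against 46.1% for Aldh1a1.

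Rxra, the common partner of RAR and many other nuclear receptors, was at 29.1, 25.7, 31.5 and 33.8 FPKM in BPA replicates 1 to 4, against 35.8, 35.8, 29.9 and 27.8 FPKM in vehicle replicates 1 to 4. The groups overlapped (difference -0.10, SE 0.129, limma adjusted p = 0.761). Replicates 1 and 2 alone gave -0.38, replicates 3 and 4 alone gave 0.17, and the value was 0.05 after GC correction.

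Of the 7 tested members other than Aldh1a1, 4 were higher and 3 lower in BPA, and 0 were called at an adjusted p under 0.05, where limma called 0.00748% of all tested genes. At an unadjusted p under 0.05 the count was also 0, beside 4.18% of all tested genes higher and 6.83% lower. With 7 genes, a count of 0 is near those shares, and nothing is read from it. By limma-voom on recovered reads 0 members were called, as were 0 of all 13376 tested genes. In the main limma fit the only gene called among all was the pseudogene Gm8430, which is no member.

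**Figure D4:**
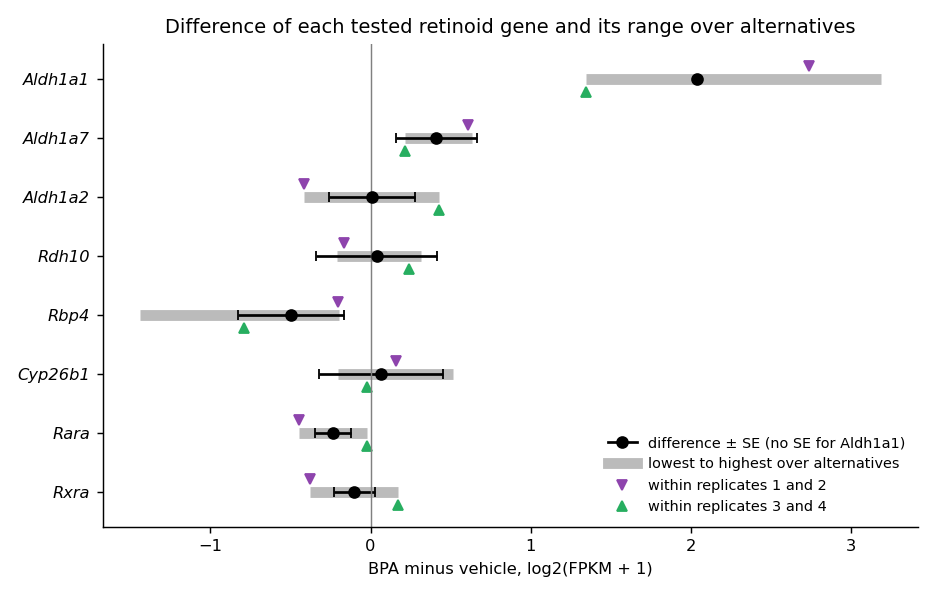
BPA minus vehicle on the log2(FPKM + 1) scale for the 8 members that passed the filter; points give the difference with its SE (none for Aldh1a1), grey bars the lowest and highest value over the alternatives, which include limma-voom, and triangles the difference within replicates 1 and 2 or 3 and 4. Aldh1a1 runs from 1.34 to 3.19; the bars of Aldh1a2, Rdh10, Cyp26b1 and Rxra cross 0.

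Levels were compared between genes in FPKM, which is per base of gene length. In BPA the order was Rxra (30.0 FPKM), Rdh10 (23.0), Aldh1a1 (6.47), Rara (5.29), Aldh1a7 (2.38), Aldh1a2 (1.13), Cyp26b1 (0.731), Rbp4 (0.386) and Aldh1a3 (0.115). Over libraries, each neighbour in this order overlapped the next except Rdh10 and Aldh1a1, and Rara and Aldh1a7. In vehicle Rxra (32.3 FPKM) and Rdh10 (23.7) again led, followed by Rara (6.42), and Aldh1a1 (0.681) stood below Aldh1a7, Aldh1a2, Rbp4 and Cyp26b1, whose ranges it overlapped for all but Aldh1a7. The gene length used for Aldh1a1 in the table, 4934 bases, is 2.09 times its principal transcript, whereas that of Aldh1a7 is the same as its transcript. Per principal transcript length, Aldh1a1 would be at 13.5 FPKM in BPA and 1.43 FPKM in vehicle, beside 2.38 and 1.45 FPKM for Aldh1a7. The ratio between the groups does not depend on that length.

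The tested protein-coding genes most like Aldh1a1 over the 8 libraries were named by the highest Pearson correlation of log2(FPKM + 1) among 11240 genes, which is a description and includes the difference that chose Aldh1a1. They were Dph7, a gene of diphthamide synthesis (r = 0.965), Pik3c3, the class III phosphoinositide kinase (0.941), Pgap2, of GPI anchor maturation (0.938), Arhgap18, a GTPase activating protein (0.932), and Slc6a4, the serotonin transporter (0.928). Their means were far closer between the groups than those of Aldh1a1, with ratios of 1.26 (Arhgap18) to 1.72 (Slc6a4). For the deviations from each group's mean, r was 0.900 for Dph7 and 0.559 to 0.656 for the others. Among the members the highest r over the 8 libraries was that of Aldh1a7, 0.576, and the lowest that of Rara, -0.777. These values too include the difference that chose Aldh1a1. For the deviations from each group's mean, Aldh1a7 was at 0.335 and Rara at -0.522. There the highest r was that of Cyp26b1, 0.457, and the lowest that of Rxra, -0.646.

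The rest of the retinoid pathway was followed in 47 further genes, of which 29 passed the filter. Higher levels in BPA were found for 15 and lower levels for 14; the list had a median difference of 0.01 beside -0.01 over all tested genes, and limma called 0. At an unadjusted p under 0.05, 0 were higher and 3 lower, beside 4.18% of all tested genes higher and 6.83% lower. Rxrb, a second RXR receptor gene, was at 7.82, 8.09, 8.17 and 5.58 FPKM in BPA replicates 1 to 4, against 10.5, 9.20, 10.4 and 12.1 FPKM in vehicle replicates 1 to 4. Its groups did not overlap, as for 4.66% of tested genes with BPA below vehicle, and its difference of -0.46 (SE 0.136) did not pass limma's test (adjusted p = 0.365). The Rxrb transcript has a GC content of 61.4%, and the difference was -0.21 after GC correction and -0.29 without both replicates 4.

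The alcohol dehydrogenase Adh7, which can oxidise retinol, was at 1.02, 0.766, 1.12 and 1.21 FPKM in BPA replicates 1 to 4, against 2.23, 1.60, 1.48 and 1.48 FPKM in vehicle replicates 1 to 4. Its groups did not overlap either, as for 4.66% of tested genes with BPA below vehicle (difference -0.41, SE 0.132, limma adjusted p = 0.374). Rdh5, a retinol dehydrogenase best known from the eye, averaged 2.99 ± 0.444 FPKM in BPA and 3.86 ± 0.555 FPKM in vehicle (SD, n = 4 each; difference -0.29, limma adjusted p = 0.451), and its difference was -0.18 after GC correction. Rdh11, a retinaldehyde reductase, averaged 4.33 ± 0.832 and 3.17 ± 1.03 FPKM in BPA and vehicle (difference 0.38, limma adjusted p = 0.490), and all 4 BPA libraries exceeded the mean of vehicle. Adh1, a further alcohol dehydrogenase that can oxidise retinol, averaged 292 ± 62.9 FPKM in BPA and 416 ± 161 FPKM in vehicle (difference -0.46, limma adjusted p = 0.526). Vehicle replicate 4 had the highest Adh1 level, 637 FPKM; the difference was -0.23 without it and -0.12 without both replicates 4.

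Rbp7, a cellular retinol binding protein gene of fat and endothelium, averaged 1.06 ± 0.376 FPKM in BPA and 2.63 ± 2.44 FPKM in vehicle (limma adjusted p = 0.516). Its level of 6.26 FPKM in vehicle replicate 4 set the mean: the difference was -0.64 with that library and -0.24 without it. Vehicle replicate 4 had the highest summed fat (289 FPKM), immune (264 FPKM) and skeletal muscle (195 FPKM) marker levels. In vehicle replicate 2, with 89.2 FPKM of fat markers, Rbp7 was at 1.25 FPKM. The part of any of these in the Rbp7 levels was not tested. Among the 18 genes under the filter were the inducible receptor Rarb (108 reads over the BPA libraries and 86 over vehicle), the hydroxylase Cyp26a1 (15 and 27 reads), the esterifying enzyme Lrat (144 and 176) and the binding protein Crabp1, with 0 reads in either group.

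**Figure D5:**
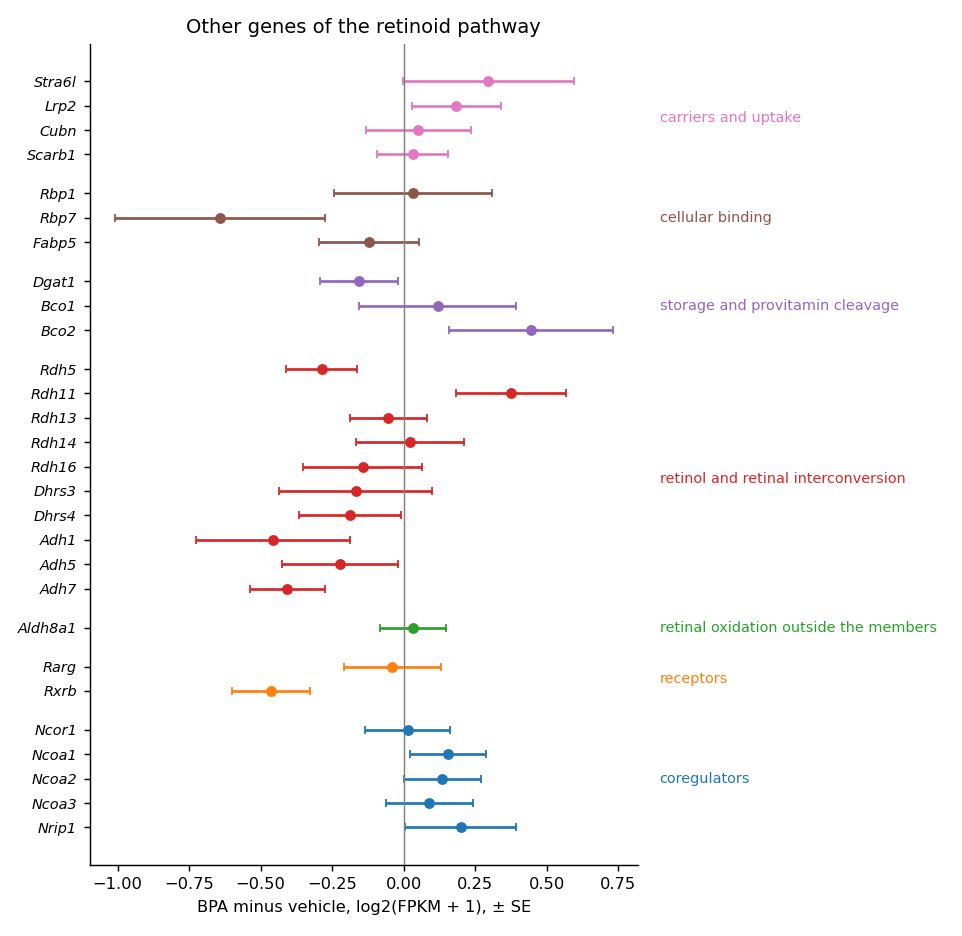
BPA minus vehicle on the log2(FPKM + 1) scale, with SE, for 28 of the 29 tested genes of the retinoid pathway that are not members, grouped and coloured by role. Rxrb (-0.46) and Adh7 (-0.41) lie furthest from 0 relative to their SE, and 0 of the 29 were called.

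Other aldehyde dehydrogenases were lower in BPA in 9 of 11 tested genes of 15 listed, against 52.0% of all tested genes, with a median difference of -0.14. That median was -0.03 after GC correction, -0.03 without BPA replicate 1, -0.03 without vehicle replicate 3, -0.06 without vehicle replicate 4, -0.23 without vehicle replicate 1 and -0.24 without vehicle replicate 2. Replicates 1 and 2 alone gave a median of -0.01 and replicates 3 and 4 alone one of -0.30. None was called by limma. An unadjusted p under 0.05 was reached by 2 lower genes (18.2%) and 0 higher ones, beside 6.83% lower and 4.18% higher of all tested genes. Aldh2, which oxidises acetaldehyde in mitochondria, was at 89.6, 83.7, 88.5 and 41.7 FPKM in BPA replicates 1 to 4. In vehicle replicates 1 to 4 it was at 101, 98.3, 124 and 115 FPKM. Its groups did not overlap, as for 4.66% of tested genes with BPA below vehicle. Its difference of -0.58 (SE 0.243, limma adjusted p = 0.440) was -0.32 without BPA replicate 4, the lowest library. Aldh4a1, of proline breakdown, averaged 48.0 ± 6.84 and 60.5 ± 6.93 FPKM in BPA and vehicle (difference -0.33, limma adjusted p = 0.432), and Aldh16a1 8.96 ± 0.881 and 11.3 ± 2.64 FPKM (difference -0.29, limma adjusted p = 0.495). After GC correction the difference was -0.18 for Aldh4a1 and -0.15 for Aldh16a1, and that of Aldh16a1 was -0.16 without vehicle replicate 3. For Aldh16a1, replicates 1 and 2 alone gave 0.03, against -0.61 within replicates 3 and 4.

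Genes known to respond to retinoic acid were read beside the members. Of 18 listed, 9 were tested, 5 with a higher and 4 with a lower level in BPA. Their median difference was 0.03, limma called 0, and some of them are also in the pathway list. The sign of that median depended on the libraries: it lay between -0.11 (without BPA replicate 1) and 0.14 (without BPA replicate 3) with each library left out, and was -0.10 in replicates 1 and 2 alone and -0.14 in replicates 3 and 4 alone. At an unadjusted p under 0.05, 1 was lower (11.1%) and 0 higher, beside 6.83% lower and 4.18% higher of all tested genes. Rarres2, which encodes the chemokine chemerin, was at 3.34, 6.76, 3.28 and 2.14 FPKM in BPA replicates 1 to 4, against 4.38, 6.28, 6.23 and 8.37 FPKM in vehicle replicates 1 to 4 (difference -0.64, SE 0.274, limma adjusted p = 0.447). The groups overlapped through BPA replicate 2, with -0.11 for replicates 1 and 2 alone and -1.17 within replicates 3 and 4. Tgm2, a transglutaminase, averaged 26.7 ± 1.45 FPKM in BPA and 22.7 ± 3.63 FPKM in vehicle (difference 0.24, limma adjusted p = 0.494), with a difference of 0.39 after GC correction. The homeobox gene Hoxa5 averaged 3.41 ± 1.14 and 4.80 ± 1.45 FPKM in those groups (difference -0.40, limma adjusted p = 0.510). The Hoxa5 difference was -0.25 without BPA replicate 3 and -0.24 without vehicle replicate 3, and replicates 1 and 2 alone gave -0.10, against -0.70 in replicates 3 and 4 alone.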

How the data were processed

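Kidney libraries (4 BPA, 4 vehicle) were read from the authors' deposited FPKM table, which also gives gene length and coordinates. The submitters' processing notes name DESeq2 1.20.0 and GRCm38 without saying what each was for. Aligner and counter: not given in the sources used here. BPA columns carry the group name; columns named C with a number were read as vehicle libraries, since the labels hold no further group. Multiplied by gene length, low values (up to 20 steps) were whole numbers of a library-specific step in 100% of cases, within 0.01 reads, which gave reads.

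Single genes were tested with limma 3.58.1 (R 4.3.3) on log2(FPKM + 1), with trended, robust variance and no covariate, over the 13376 genes with a mean of at least 0.5 FPKM, with a Benjamini-Hochberg threshold of 0.05. The fit was run on simulated counts with a common dispersion and no outlying library or replicate parts. That run does not measure the error rate of the fit in these libraries. Members and lists were chosen with earlier results of these data known. All members were named, and from each list the genes with the smallest p, of which 1 pathway gene, counted in its list, is not reported here. Alternatives were other pseudocounts and filters, scalings, library weights, limma-voom on recovered reads, another variance model, a replicate block, a term for replicates 1 and 2 against 3 and 4, GC correction, and libraries left out. Transcripts came from GENCODE M21, where 7 of 9 members have the same coordinates, and promoters from RefSeq. Replicates differed beyond counting noise (chi-square per gene 14.3 to 91.0). Python 3.11.15 and Biopython 1.88 were used.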

Additional observations from a re-analysis of the deposited data

Results flagged for a closer look

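Among 18 sets of 4 libraries (9 members in 2 groups), 1 held a library far from its others, where chance flags about 1 in 20. Aldh1a2 in BPA replicate 1, at 1.45 FPKM, stood apart from the other BPA libraries, at 0.994 to 1.06 FPKM; the gap was 0.86 of the group's range. It was from 57 reads, and leaving that library out turned the Aldh1a2 difference to -0.06.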

How the results depend on the processing

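Aldh1a1 was chosen by this contrast and its groups did not overlap, so the sign of its difference could hardly turn. That it stayed above 0 in all 23 alternatives is therefore a description, and nothing is read from it. The size of the Aldh1a1 difference was 2.97 with a pseudocount of 0.1 and 3.19 by limma-voom. It was 2.74 within replicates 1 and 2, 1.34 within replicates 3 and 4, and 1.81 to 2.34 with each library left out. Among all tested genes, 8 were called with library weights, 0 by limma-voom (1526 at an unadjusted p under 0.05), 2 with a term for replicates 1 and 2 against 3 and 4, and 0 to 4 with each library left out. The count of members past the threshold was 1 with library weights and 0 to 1 with each library left out (1 without BPA replicate 3); that 1 was Aldh1a1, which was chosen by this contrast, so nothing is read from it, and the count among the other members was 0. The pathway median was -0.0598 with library weights, -0.0879 within replicates 1 and 2, -0.0634 within replicates 3 and 4 and -0.0619 to 0.00067 with each library left out; the target median was -0.14 within replicates 3 and 4, -0.10 within replicates 1 and 2 and -0.11 to 0.14 with each library left out. The median of the other aldehyde dehydrogenases was -0.24 to -0.03 with each library left out.

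Small differences turned. Aldh1a2 was -0.0165 after rescaling to a common read total, -0.0905 with library weights, -0.17 without both replicates 4 and -0.20 to 0.24 with each library left out. Rdh10 was -0.0678 without both replicates 4 and -0.21 to 0.31 with each library left out, and Cyp26b1 -0.21 to 0.40. After GC correction Rxra was 0.0497. The cause was not tested.

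Same-numbered libraries deviated together with correlations of 0.137, 0.019, 0.138 and -0.033, so the numbers were not taken as pairs. With the replicate block 0 genes were called (1376 at an unadjusted p under 0.05), members included (Rara adjusted p = 0.536 by limma). Counts of 0 to 43 reads per library limit Aldh1a3 and Rbp4.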
